A study of Mus musculus with 6 samples.

Results

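Genes at which the heterozygous *Wnt6* deletion stood apart from both other genotypes were examined in RNA sequencing of mouse embryonic stem cells (mESCs). A gene was a member when both heterozygous libraries lay above, or both below, all 4 other libraries on the log2 scale of CPM (counts relative to the library's total, brought to a common total with TMM factors that adjust for composition). Of 55385 listed genes, 16951 reached 10 counts in 2 or more of the 6 libraries and were tested. The rule was met by 4409 of these, 2323 above the range (13.7% of the tested genes) and 2086 below it (12.3%). Membership was read from the same 6 libraries as the tests, so it describes the genes and is no independent support for them. Of the members, 34 passed the filter on low counts only through the heterozygous libraries.

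The wild-type (WT) cells were G4 mESCs, an F1 hybrid of 129/Sv and C57BL/6. The heterozygous cells (Wnt6_het_del) carried the deletion of the *Wnt6* region on 1 allele and the homozygous cells (Wnt6_homo_del) on both, made in G4 cells by CRISPR-Cas9 with a pair of guide RNAs. All 3 genotypes were grown in Knockout DMEM with LIF on a layer of CD1 feeder cells and gave polyA RNA for stranded libraries, 2 per genotype, of between 23813912 and 28964706 counts. Deletion clones were picked as individual colonies. The labels do not say whether the libraries of a genotype came from 1 clone or several, or from separate cultures, so p-values measure the spread between these libraries, which may be technical, and deletion and clone cannot be told apart. All p-values are from the quasi-likelihood test of edgeR, with adjustment after Benjamini and Hochberg over the 16951 genes. Where a pair of log2 differences is given, the first is heterozygous minus WT and the second heterozygous minus homozygous cells, each with its standard error (SE).

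An mESC line holds the naive state with a network of transcription factors that includes OCT4, SOX2, NANOG and ESRRB, and LIF feeds it through STAT3. Cells that leave this state can turn toward primitive endoderm, the extraembryonic epithelium marked by GATA factors and endocytic receptors, or toward the epiblast lineages. Imprinted genes, transcribed from 1 parental allele under a methylation mark set in the germline, are known to vary between mESC lines and clones. The labelled cell type was checked against its markers: all 24 genes of the naive and general pluripotency list were tested in these libraries, and *Pou5f1*, which encodes OCT4, was at 983 ± 12.6, 904 ± 38.4 and 1021 ± 62.7 CPM (mean ± SD, n = 2) in WT, heterozygous and homozygous cells. Feeder RNA was also present. The summed level of 37 fibroblast genes was 5921 and 5852 CPM in WT, 4561 and 4567 in the heterozygous and 3307 and 3281 in the homozygous libraries, so the heterozygous libraries lay between the others. In such bulk RNA fewer cells of a type and less RNA per cell cannot be told apart.

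The targeted region was checked first. *Wnt6*, a secreted Wnt ligand (GRCm38 chr1:74771892-74785322), had 11 and 13 counts in WT, 6 and 4 in the heterozygous and 0 and 0 in the homozygous libraries. *Cdk5r2*, an activator of CDK5 in the same deleted stretch, had 30 and 27, 16 and 17, and 1 and 2 counts. For both genes the heterozygous libraries lay between the other genotypes without overlap, so neither was a member. *Pax3*, the paired-box factor that the study links to *Wnt6* by a loop, had 4 and 6, 11 and 5, and 4 and 4 counts, and was too low to enter the test.

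Against the average of the WT and homozygous means, 37 genes were higher (0.218%) and 31 lower (0.183%) at an absolute log2 difference above 1 and an adjusted p below 0.05. Without the limit on size, 1132 were higher (6.68%) and 1219 lower (7.19%), of which 892 and 979 were members. That contrast can pass through 1 of the other genotypes alone, so each gene was also tested against each of them. At an adjusted p below 0.05 in the same direction against both, 237 genes were higher (1.4%) and 224 lower (1.32%), and all 461 were members. When libraries were scaled by total counts in place of TMM factors, the split was 279 higher and 173 lower. These 461 genes are called below. Both comparisons share the heterozygous libraries. Most called differences were small: the median log2 difference in the contrast was 0.35 for the higher and -0.42 for the lower genes. Only 3 higher and 3 lower genes differed by at least 1 on the log2 scale from both genotypes. They were *Srgn*, *Cubn* and the predicted antisense gene *Gm15726* among the higher, and *Nap1l5*, *Peg13* and *Sprr2k* among the lower. *Srgn* entered the test only through the heterozygous libraries, so its call is a description. Among the 237 higher genes, 184 did not differ between homozygous and WT cells at an adjusted p below 0.05, 21 were higher in homozygous cells and 32 lower.

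**Figure D1:**
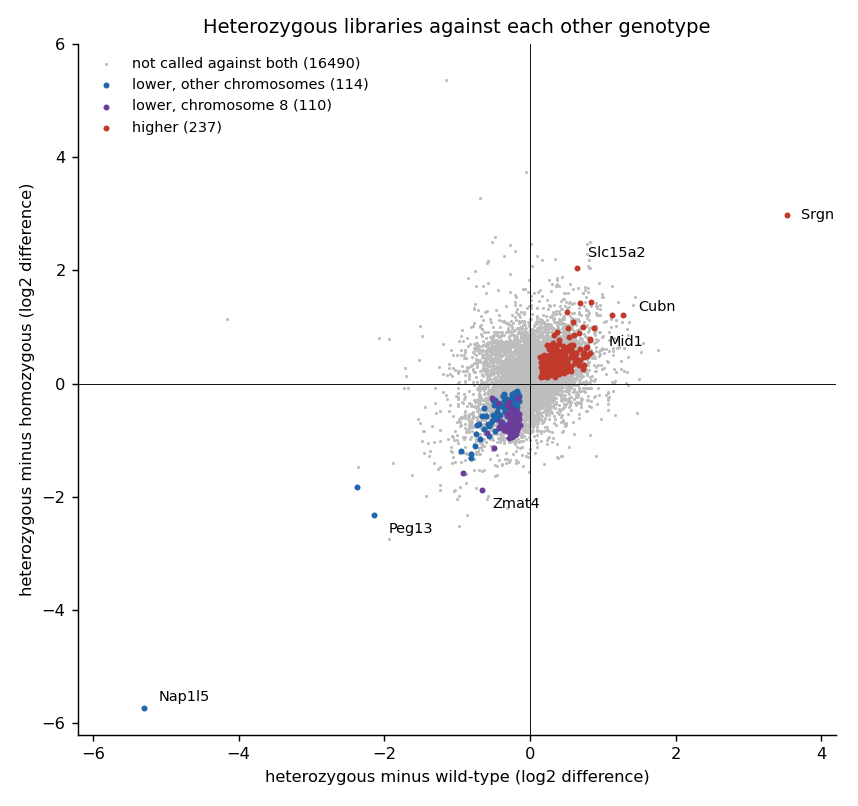
Each point is 1 of the 16951 tested genes, placed by its fitted log2 difference of heterozygous from wild-type (horizontal) and from homozygous libraries (vertical); coloured points were called in the same direction against both. *Nap1l5* and *Srgn*, with 3 counts or fewer in every library of at least 1 genotype, lie far out at differences that depend on the prior count; most called genes lie within 1 unit of the centre, and the chromosome 8 genes (purple) lie further down than to the left.

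The edge of the rule was read among genes well above the filter. Among genes with a mean of at least 100 counts, those that just met the rule were *Scyl3* (0.09 against WT and 0.07 against homozygous, log2) and *Dnaaf3* (0.28 and 0.21) above the range, and *Lsm14a* (-0.03 and -0.23) and *Rpl7a* (-0.03 and -0.07) below it. Genes that just missed it included *Rab39b* (0.09 and 0.24), *Mff* (0.06 and 0.03) and *Tle4* (-0.03 and -0.24). Against homozygous cells *Lsm14a* (adjusted p = 0.000494) and *Tle4* (adjusted p = 0.000307) had differences that passed on either side of the edge, and neither passed against WT, at adjusted p = 0.771 and 0.797.

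Chromosome 8 held much of the lower side. Of its 890 tested genes, 458 lay below the range (51.5%), and 110 were called lower (12.4%), against 114 of 16061 elsewhere (0.71%). A single gene of the chromosome, *Acta1*, which encodes skeletal muscle actin, was called higher. The homozygous libraries moved here as well. The median chromosome 8 gene stood at 0.398 and 0.393 above the WT mean in the homozygous libraries and at -0.116 and -0.129 in the heterozygous libraries on the log2 scale, while the median of all other genes in these 4 libraries lay between -0.0157 and 0.00858. Of the 110 genes, 103 were also higher in homozygous than in WT cells at an adjusted p below 0.05. When the chromosome was divided by gene order into 4 parts of equal gene number, the median against WT was -0.081, -0.14, -0.13 and -0.13, so no part stood at 0. Against the contrast medians of the other autosomes and X, which ran from 0.00185 to 0.0366, that of chromosome 8 was -0.318. *Zmat4*, a zinc finger gene there, had 246 and 217 counts in WT, 139 and 135 in the heterozygous and 439 and 514 in the homozygous libraries. It was lower in heterozygous cells, at -0.66 and -1.87 (SE 0.111 and 0.0991, adjusted p = 0.000827 and 1.16e-10). *Sall1*, another zinc finger gene there, named after its values were seen, had 5706 and 4910, 3664 and 3903, and 5627 and 6341. It was lower in heterozygous cells, at -0.40 and -0.74 (SE 0.0417 and 0.0416, adjusted p = 5.18e-06 and 2.21e-10). Chromosome 8 genes are named as such where they appear below.

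**Figure D2:**
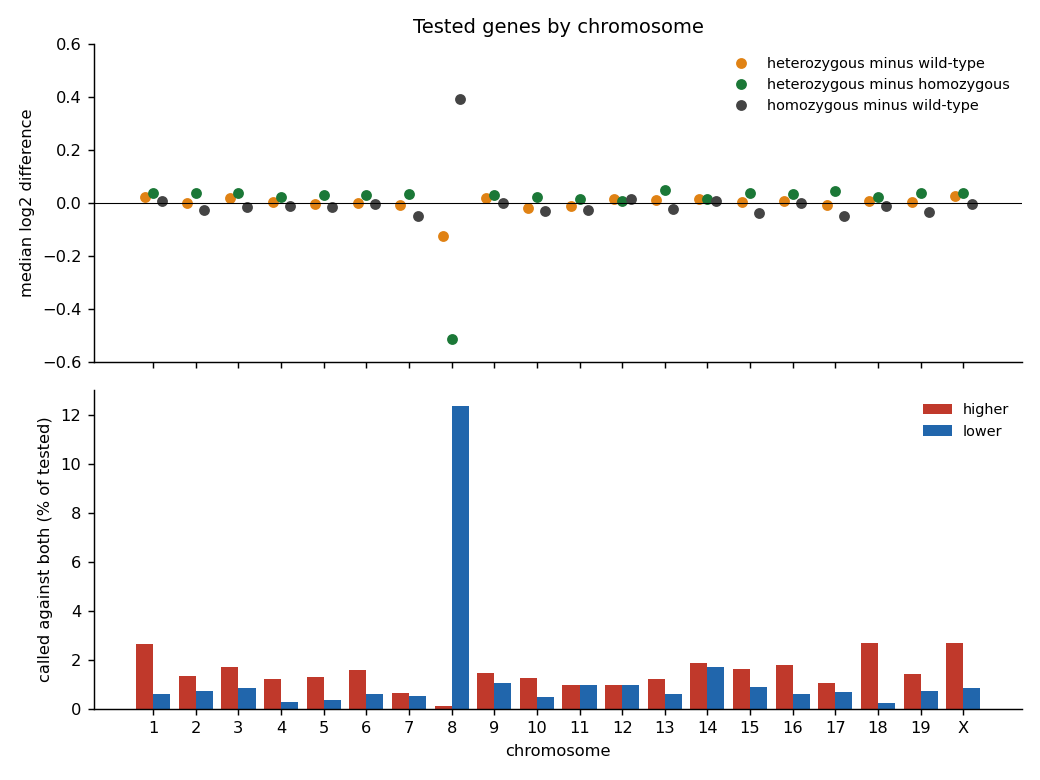
The upper panel gives the median log2 difference of the tested genes of each autosome and X in the 3 pairwise comparisons, and the lower panel the percentage called higher or lower in heterozygous cells against both other genotypes. Chromosome 8 stands apart in all of them, with a homozygous minus wild-type median of 0.39 and 12.4% of its genes called lower; the other medians shown lie close to 0.

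The lowest called genes, ranked by the smaller pairwise difference, were a pair of imprinted genes that lie inside introns of other genes. *Nap1l5*, an intronless gene of the nucleosome assembly protein family (GRCm38 chr6:58905233-58907076, minus strand), is transcribed from the paternal allele and sits within *Herc3*, on the opposite strand and without overlapping its exons. Its counts were 28 and 24 in WT, 0 and 1 in the heterozygous and 28 and 35 in the homozygous libraries. Reads were thus nearly absent from both heterozygous libraries and present in the other 4. With the heterozygous libraries taken at 3 counts each, *Nap1l5* was at least 8.11-fold lower than in WT and at least 11.01-fold lower than in homozygous cells (adjusted p = 5.82e-05 and 1.60e-06). DESeq2 gave the gene no adjusted p.

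*Peg13*, a paternally expressed noncoding RNA (GRCm38 chr15:72805600-72810324, minus strand), lies in an intron of *Trappc9* on the same strand. It had 200 and 168 counts in WT, 43 and 35 in the heterozygous and 163 and 207 in the homozygous libraries. The heterozygous libraries were both low and far from the rest, at 1.52 ± 0.292 CPM against 6.69 ± 0.161 and 7.54 ± 0.592 (SD, n = 2). The log2 differences were -2.14 and -2.31 (SE 0.166 and 0.165, adjusted p = 8.23e-08 and 2.64e-09). *Nap1l5* is annotated as protein coding and *Peg13* as sense intronic, and unspliced *Trappc9* reads could be counted with the latter.

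The host genes were members in opposite directions, *Herc3* above the range and *Trappc9* below it. *Herc3*, a HECT-domain protein gene, was at 32.2 ± 0.0941, 34.5 ± 0.653 and 28.6 ± 2.004 CPM in WT, heterozygous and homozygous cells, with log2 differences of 0.10 and 0.27 (SE 0.0647 and 0.0665, adjusted p = 0.4800 and 0.00497). *Trappc9*, a subunit of a vesicle-tethering complex, was at 19.6 ± 0.0103, 18.05 ± 0.282 and 22.3 ± 1.63 CPM, with log2 differences of -0.12 and -0.30 (SE 0.0781 and 0.07802, adjusted p = 0.489 and 0.00756). Neither passed the test against WT. The list of nested imprinted genes and their hosts had *Nap1l5* and *Peg13* called lower and *Nnat* higher among 11 tested. These calls are 18.2% and 9.09% of the list, against 1.32% and 1.4% of all tested genes.

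Other paternally expressed genes were higher or were not called, except 1 on chromosome 8. *Nnat*, encoding the small membrane protein neuronatin and lying inside *Blcap* on the opposite strand, had 749 and 699, 961 and 947, and 637 and 711 counts, and was higher in heterozygous cells by 0.49 and 0.43 (SE 0.06695 and 0.0676, adjusted p = 8.88e-05 and 8.47e-05). *Sfmbt2*, a Polycomb-group gene imprinted in the extraembryonic lineage, had 3894 and 3105, 4060 and 4316, and 2629 and 3122 counts and was higher by 0.36 and 0.47 (SE 0.04799 and 0.0485, adjusted p = 7.85e-05 and 4.24e-07). In both genes the heterozygous libraries lay above all others. *Gab1*, an adaptor of receptor signalling on chromosome 8, was lower, at -0.22 and -0.89 (SE 0.0405 and 0.0405, adjusted p = 0.00215 and 2.87e-11). Of 33 tested genes of the paternally expressed list, *Nnat* and *Sfmbt2* were called higher (6.06%, against 1.4% of all tested genes). *Nap1l5*, *Peg13* and *Gab1* were called lower (9.09%, against 1.32%). The median contrast was 0.10 against 0.01 over all tested genes. Among 42 maternally expressed genes 0 were called in either direction by edgeR, and 0 by DESeq2 and limma-voom, with 3 higher and 1 lower at an unadjusted p below 0.05 against both genotypes. Their median contrast was 0.01. Of 19 genes that maintain imprints or DNA methylation, *Dnmt3a*, a de novo methyltransferase, was lower, at -0.18 and -0.12 (SE 0.0422 and 0.0423, adjusted p = 0.0118 and 0.04002), and *Zfp42* (chromosome 8) was lower too. Of 22 germline genes known to be silenced by promoter methylation, *Hormad1*, a meiotic chromosome protein, had 256 and 222, 146 and 173, and 205 and 248 counts. It was lower, at -0.49 and -0.58 (SE 0.111 and 0.112, adjusted p = 0.01101 and 0.000659), and was the list's single call. That call is 4.55% of the germline list, and the lower calls among the 19 genes are 10.5%, against 1.32% of all tested genes. DESeq2 called 0 of the germline list lower.

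The stretch before the start of *Nap1l5* is shown beside that of *Nnat*, since these nested paternally expressed genes differed in direction. Both are the 250 bases upstream of the annotated start from RefSeq, GRCm38.p6, on the strand of the gene. *Nap1l5* is at chr6:58907127-58907376 (minus strand) and *Nnat* at chr2:157559828-157560077 (plus strand).
Nap1l5: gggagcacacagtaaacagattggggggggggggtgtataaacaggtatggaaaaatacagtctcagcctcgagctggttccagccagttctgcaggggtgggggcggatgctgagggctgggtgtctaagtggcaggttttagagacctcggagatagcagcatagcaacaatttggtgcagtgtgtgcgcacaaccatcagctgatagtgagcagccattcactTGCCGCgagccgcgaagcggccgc
Nnat: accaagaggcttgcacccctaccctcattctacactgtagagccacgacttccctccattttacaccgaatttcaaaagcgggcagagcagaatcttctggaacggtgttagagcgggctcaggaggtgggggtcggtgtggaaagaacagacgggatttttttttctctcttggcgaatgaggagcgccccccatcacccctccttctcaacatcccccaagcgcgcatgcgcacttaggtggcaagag
Capitals mark TGCCGC, the core of the motif bound by ZFP57, the zinc finger protein that keeps methylation at imprints, searched on both strands (GCGGCA on the other). The *Nap1l5* stretch held it 1 time and the *Nnat* stretch 0 times, with 1 further match for each gene in the 50 bases after the start. The first stretch held 10 CG pairs and the second 12. Over the 300-base windows of 32851 promoters, 11.6% held these letters, and 10 of 43 promoters of the paternally expressed list did (23.3%). A match is a description of the letters and not a binding site.

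**Figure D3:**
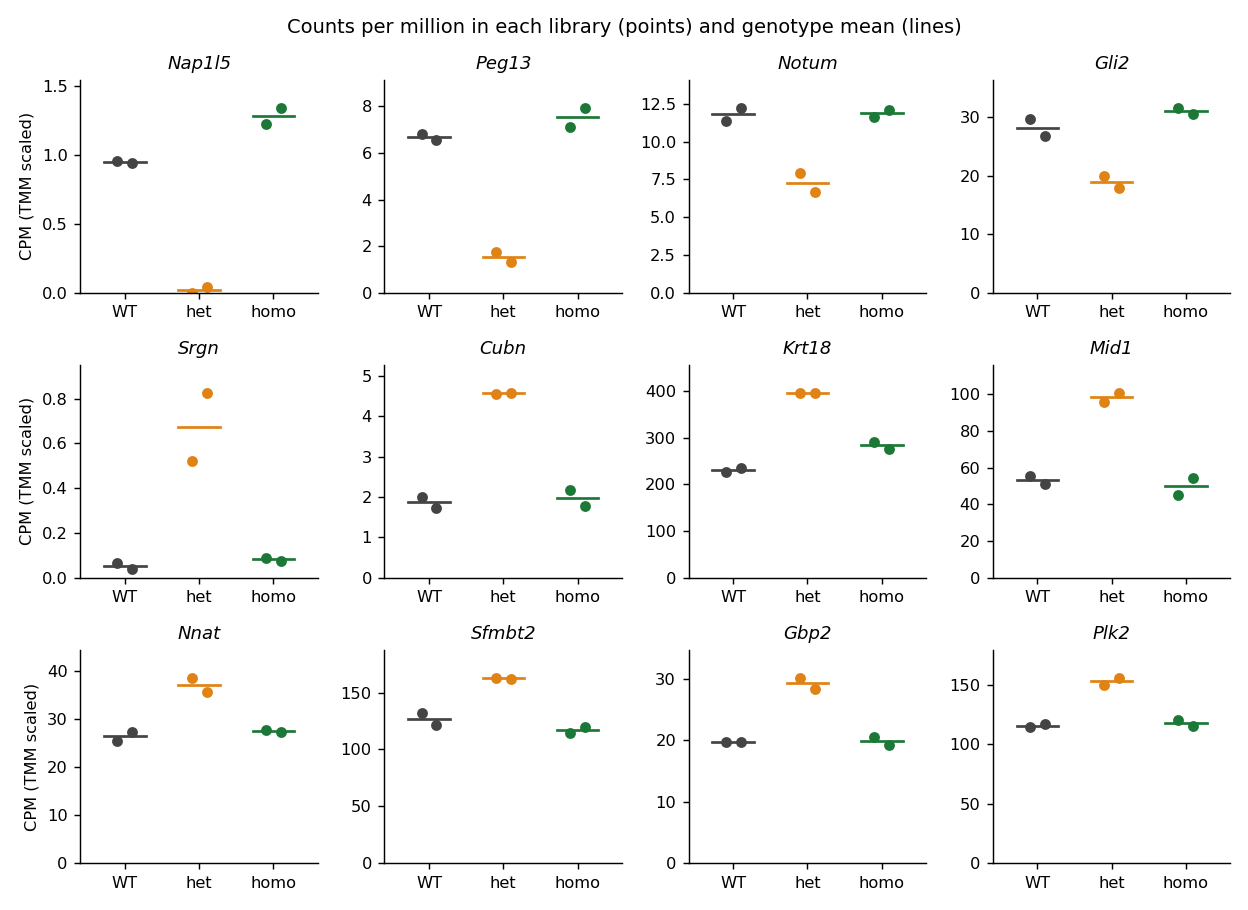
CPM in each library (points; WT wild-type, het heterozygous, homo homozygous) with the genotype mean as a line, for 12 members; every axis starts at 0. The heterozygous points lie below all others for *Nap1l5*, *Peg13*, *Notum* and *Gli2* and above all others for the remaining 8 genes.

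Genes of the naive pluripotency network were among the members below the range. Of 24 tested, 10 were called lower (41.7%, against 1.32% of all tested genes) and none higher. Below the range lay 17 (against 12.3% of all tested genes), and the median contrast was -0.17. *Esrrb*, an orphan nuclear receptor at the core of the network, had 3624 and 3271 counts in WT, 2384 and 2581 in the heterozygous and 2921 and 3289 in the homozygous libraries. It was at 96.4 ± 0.824 CPM in heterozygous against 126 ± 3.36 in WT and 127 ± 0.815 in homozygous cells, with log2 differences of -0.38 and -0.40 (SE 0.04496 and 0.0452, adjusted p = 1.69e-05 and 1.55e-06). *Nr0b1*, which encodes the nuclear receptor DAX1, had 987 and 937, 625 and 693, and 923 and 982 counts, with log2 differences of -0.46 and -0.61 (SE 0.06799 and 0.06803, adjusted p = 0.000239 and 1.25e-06). In both genes the heterozygous libraries were low and the other 4 did not overlap with them.

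*Nr5a2*, a nuclear receptor that can drive *Pou5f1*, was lower, at -0.39 and -0.67 (SE 0.0797 and 0.0788, adjusted p = 0.00494 and 2.13e-06). *Fbxo15*, an F-box gene and classic reporter of pluripotency, was lower, at -0.29 and -0.71 (SE 0.0516 and 0.0511, adjusted p = 0.00128 and 2.64e-09). *Pecam1*, a surface adhesion protein of naive cells, was lower, at -0.21 and -0.48 (SE 0.0581 and 0.0577, adjusted p = 0.0359 and 3.61e-06). In these 3 genes homozygous cells were called above WT, so the heterozygous and homozygous libraries lay on opposite sides of WT. *Utf1*, *Dppa5a* and *Sox2* differed by less, with log2 differences between -0.24 and -0.14. *Zfp42*, the REX1 gene that marks naive cells, and *Klf2*, a Krüppel-like factor, were lower against WT, at -0.31 and -0.32, and both lie on chromosome 8. When all genes of that chromosome were left out before the fit, 9 of the list were called.

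*Nanog* and *Pou5f1* passed against homozygous cells only, at -0.24 (SE 0.0476, adjusted p = 0.000756) and -0.18 (SE 0.04504, adjusted p = 0.00677). Against WT they gave -0.16 (SE 0.0474, adjusted p = 0.05001) and -0.12 (SE 0.04501, adjusted p = 0.152). *Klf4*, named after its values were seen, stood at -0.25 (SE 0.06600, adjusted p = 0.0281) against WT and at -0.06 (SE 0.06798, adjusted p = 0.5500) against homozygous cells, whose libraries were about as low. The called number fell to 3 when WT replicate 2 was left out, to 5 without heterozygous replicate 2 and to 6 without WT replicate 1 or heterozygous replicate 1, in fits with fewer libraries. Among 17 formative and primed genes, *Otx2*, an early epiblast factor, and *Dnmt3a* were called lower and none higher, with a median contrast of -0.05. *Otx2* had 645 and 572, 426 and 456, and 454 and 516 counts, with log2 differences of -0.37 and -0.21 (SE 0.0736 and 0.0758, adjusted p = 0.00366 and 0.0467). The lower calls are 11.8% of the formative and primed list, against 1.32% of all tested genes. DESeq2 and limma-voom did not call *Otx2*.

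**Figure D4:**
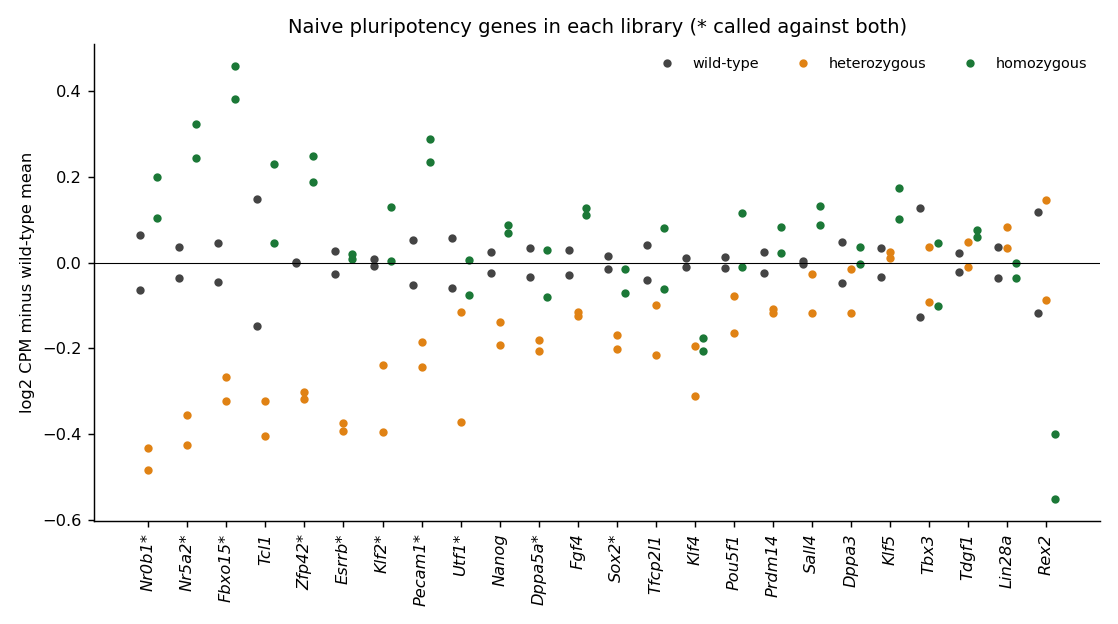
Each library's log2 CPM minus the wild-type mean for the 24 genes of the naive and general pluripotency list, ordered by the heterozygous contrast; an asterisk marks the 10 genes called lower against both other genotypes. The heterozygous points (orange) are the lowest for 17 genes, and at *Klf4* the homozygous points are about as low.

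A few markers of extraembryonic lineages were higher. Of 40 tested genes of the primitive endoderm list, 5 were called higher (12.5%, against 1.4% of all tested genes) and none lower, and the median contrast was 0.15. *Cubn*, encoding the endocytic receptor cubilin of the visceral endoderm, had 59 and 44 counts in WT, 113 and 122 in the heterozygous and 50 and 46 in the homozygous libraries. The heterozygous libraries were both high and far from the others, which lay close together. The CPM means were 1.87 ± 0.202, 4.56 ± 0.0301 and 1.98 ± 0.294 (SD, n = 2), and the log2 differences 1.28 and 1.21 (SE 0.176 and 0.179, adjusted p = 9.30e-05 and 3.90e-05). *Srgn*, which encodes the granule proteoglycan serglycin and is expressed in parietal endoderm and in blood cells, had 2 and 1, 13 and 22, and 2 and 2 counts. It is 1 of the 34 members that entered the test only through the heterozygous libraries, so it had to differ, and its call is a description. With the other genotypes taken at 3 counts a library it was at least 6.14-fold higher than in WT and at least 5.48-fold higher than in homozygous cells. Without it the list has 4 calls.

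The remaining called genes of the list are epithelial. *Krt18* and *Krt8* encode the partner keratins of simple epithelia, in trophectoderm as well as in primitive endoderm. *Krt18* had 6625 and 6001, 9845 and 10547, and 6672 and 7175 counts and was higher by 0.78 and 0.48 (SE 0.04303 and 0.0428, adjusted p = 1.35e-09 and 5.07e-08). *Krt8* had 8352 and 7149, 12158 and 12182, and 8989 and 9286 counts and was higher by 0.75 and 0.34 (SE 0.04800 and 0.0476, adjusted p = 9.11e-09 and 2.38e-05). The heterozygous libraries were above the other 4 for both keratins, with homozygous cells next. *Cldn6*, a tight-junction claudin of early epithelia, was higher by 0.34 and 0.18 (SE 0.0466 and 0.0466, adjusted p = 8.50e-05 and 0.007099). Factors that define primitive endoderm were not called. *Gata6* had both heterozygous libraries above the range, with 1.09 and 1.58 CPM against 0.851 and 0.548 in WT and 0.611 and 0.692 in homozygous libraries. Its log2 differences were 0.91 and 1.03 (adjusted p = 0.126 and 0.0302). *Gata4* stood at 0.67 and 0.40 (adjusted p = 0.0830 and 0.174). Of 14 tested trophectoderm genes the 2 keratins alone were called (14.3%, against 1.4% of all tested genes), and the median contrast was 0.26. In these lists the homozygous minus WT medians were -0.03 for primitive endoderm and 0.32 for trophectoderm. Without heterozygous replicate 1 the primitive endoderm list gave 3 calls.

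Several targets of p53, the factor that answers DNA damage with arrest and cell death, were higher. Of 23 tested, 7 were called higher (30.4%, against 1.4% of all tested genes) and none lower, and the median contrast was 0.14. *Plk2*, a polo-like kinase, had 3367 and 2989 counts in WT, 3733 and 4158 in the heterozygous and 2770 and 3017 in the homozygous libraries, and was higher by 0.40 and 0.37 (SE 0.0452 and 0.0455, adjusted p = 1.03e-05 and 4.05e-06). *Pmaip1*, which encodes the death-promoting BH3 protein NOXA, had 3131 and 2736, 3310 and 3577, and 2447 and 2785 counts, at 107 ± 0.407, 134 ± 0.9701 and 107 ± 0.125 CPM, with log2 differences of 0.32 and 0.32 (SE 0.0435 and 0.0438, adjusted p = 7.64e-05 and 1.49e-05). For both genes the WT and homozygous levels were close and the heterozygous level above them.

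*Tnfrsf10b*, a death receptor, was higher by 0.33 and 0.36 (SE 0.0608 and 0.0616, adjusted p = 0.00192 and 0.000226). *Trp53inp1*, which acts with p53 in stress responses, was higher by 0.24 and 0.46 (SE 0.0446 and 0.0452, adjusted p = 0.00241 and 2.17e-07), with homozygous cells below WT. *Btg2*, an antiproliferative gene, was higher by 0.25 and 0.24. *Ccng1*, encoding cyclin G1, was higher by 0.18 and 0.29. *Mdm2*, the ubiquitin ligase that degrades p53, was higher by 0.18 and 0.29. *Cdkn1a*, the p21 inhibitor of cyclin-dependent kinases, was at 0.04 against WT and 0.35 against homozygous cells and was no member. *Apaf1*, the scaffold of the apoptosome, was chosen after its values were seen, and was higher by 0.28 and 0.16 (SE 0.0546 and 0.0548, adjusted p = 0.00357 and 0.0369). The list gave 2 calls without heterozygous replicate 2 and 4 without WT replicate 1 or WT replicate 2.

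Genes of the amino acid response under ATF4, which switches on transporters, biosynthesis and tRNA synthetases, lay mostly below the range. Of 30 tested, 6 were called lower (20%, against 1.32% of all tested genes) and none higher, with 19 below the range (12.3% over all) and a median contrast of -0.22. *Psat1*, of serine synthesis, had 10806 and 9849, 8157 and 8969, and 11740 and 12674 counts and was lower, at -0.18 and -0.59 (SE 0.04303 and 0.04300, adjusted p = 0.0157 and 3.67e-09). *Shmt2*, the mitochondrial serine hydroxymethyltransferase, was lower, at -0.24 and -0.53 (SE 0.0471 and 0.04700, adjusted p = 0.00336 and 5.33e-08). *Psph*, the last enzyme of serine synthesis, was lower, at -0.24 and -0.49 (SE 0.0595 and 0.0592, adjusted p = 0.0182 and 2.93e-06). *Aldh18a1*, of proline synthesis, was lower, at -0.19 and -0.51 (SE 0.0485 and 0.0481, adjusted p = 0.0211 and 1.27e-07). For all 4 the homozygous cells were called above WT, so that the difference from homozygous was the larger. *Aars*, the alanyl-tRNA synthetase, and *Slc7a5*, a large neutral amino acid transporter, lie on chromosome 8 and were lower against WT, at -0.23 and -0.21 and against homozygous at -0.89 and -0.80. With chromosome 8 left out, 4 of the list were called. The number ranged from 1, without WT replicate 2 or heterozygous replicate 2, over 3, without WT replicate 1 or heterozygous replicate 1, to 10, without either homozygous replicate.

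Other lists of growth and metabolism held fewer calls. Of 75 cytosolic ribosomal protein genes, 3 were called lower (4%, against 1.32% of all tested genes), among them *Rpl13* (chromosome 8) and *Rpl36*. The median was -0.08, with 24 below the range (against 12.3% of all tested genes) and 2 above it. Of 49 nuclear genes of oxidative phosphorylation, *Cox4i1* and *Ndufb7* (both chromosome 8) and *Uqcrq* were lower (6.12%, against 1.32% of all tested genes). Here the median was -0.06, with 14 below the range and 0 above it, against 12.3% and 13.7% of all tested genes. Each of these lists kept 1 call without chromosome 8. Of 33 genes of glycolysis and hypoxia, *Slc2a3* and *Slc2a1*, the glucose transporters GLUT3 and GLUT1, were higher by 0.35 and 0.17 against WT. Against homozygous cells they were higher by 0.12 and 0.19. At *Slc2a3* the homozygous cells were themselves above WT, by 0.22 (SE 0.0395, adjusted p = 0.000327). *Pdk1*, a kinase that restrains pyruvate oxidation, was lower, at -0.15 against WT and -0.22 against homozygous cells. The median was 0.04, with 6.06% called higher and 3.03% lower, against 1.4% and 1.32% of all tested genes. Among 24 genes of cholesterol synthesis 0 were called by edgeR, DESeq2 or limma-voom, and 1 was lower at an unadjusted p below 0.05 against both genotypes.

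Signalling genes were called in both directions. *Notum*, a feedback enzyme that removes the lipid Wnt ligands need and is itself a Wnt target, had 334 and 313 counts in WT, 197 and 177 in the heterozygous and 267 and 315 in the homozygous libraries. It was lower, at -0.70 and -0.71 (SE 0.107 and 0.108, adjusted p = 0.000306 and 5.73e-05). *Wnt3*, a ligand of the primitive streak, had 159 and 107, 184 and 198, and 127 and 135 counts, higher by 0.62 and 0.47 (SE 0.132 and 0.132, adjusted p = 0.00693 and 0.0129). The heterozygous libraries thus lay lowest for the inhibitor and highest for the ligand. *Wnt4* was higher by 0.72 and 0.26 (SE 0.08803 and 0.0854, adjusted p = 2.54e-05 and 0.0327). For *Wnt4* the homozygous cells were also above WT, by 0.47 (SE 0.0909, adjusted p = 0.000804). *Wnt7b* was higher by 0.28 and 0.38 (SE 0.0774 and 0.0796, adjusted p = 0.0434 and 0.00139). Of 33 tested Wnt pathway genes these 3 were called higher (9.09%, against 1.4% of all tested genes) and *Notum* lower (3.03%, against 1.32%). The median contrast of the list was 0.11. The number of higher calls was 0 by DESeq2, and 0 without WT replicate 2, heterozygous replicate 1 or heterozygous replicate 2, 1 without homozygous replicate 2 and 2 without WT replicate 1 or chromosome 8. *Axin2*, the usual reporter of Wnt signalling, was at 0.28 against WT and 0.38 against homozygous cells and was not called. *Wnt3* was also the only call among 13 genes of mesendoderm and primitive streak (7.69%, against 1.4% of all tested genes called higher).

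*Gli2*, a transcription factor of the Hedgehog pathway, had 872 and 681, 495 and 475, and 724 and 792 counts and was lower, at -0.58 and -0.72 (SE 0.0773 and 0.0774, adjusted p = 6.46e-05 and 7.70e-07). *Gli1*, its target, was named after its values were seen and was lower, at -0.23 and -0.19 (SE 0.0568 and 0.0575, adjusted p = 0.0223 and 0.0208). Of 19 genes of FGF and ERK feedback, *Etv5*, an ETS factor, was lower, at -0.23 and -0.28 (SE 0.0417 and 0.0418, adjusted p = 0.001798 and 5.40e-05), and *Phlda1* was higher by 0.28 and 0.41 (SE 0.0693 and 0.0712, adjusted p = 0.01800 and 0.000226). Of 14 LIF and STAT3 genes, *Pim1*, a kinase and STAT3 target, was higher by 0.24 and 0.39 (SE 0.0453 and 0.0459, adjusted p = 0.00212 and 2.18e-06). The median contrast of the LIF and STAT3 list was -0.07. This list had 3 genes above the range and 5 below it, where 13.7% and 12.3% of all tested genes lay. Its single call is 7.14%, against 1.4% of all tested genes called higher. The FGF and ERK calls are 5.26% of that list in each direction, against 1.4% and 1.32% of all tested genes. Among 17 BMP and Id genes 0 were called by edgeR, DESeq2 or limma-voom, and 1 was higher at an unadjusted p below 0.05 against both genotypes. Of 36 Polycomb subunits, *Pcgf5*, of a variant PRC1, was higher by 0.31 and 0.46 (SE 0.0766 and 0.0791, adjusted p = 0.0188 and 0.000216). *Bcorl1*, a corepressor, was lower, at -0.51 and -0.55 (SE 0.127 and 0.128, adjusted p = 0.02099 and 0.00351). These are 2.78% of the list in each direction, against 1.4% and 1.32% of all tested genes, and DESeq2 called neither.

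Of 28 tested genes of the interferon and MHC class I list, *Gbp2* and *Gbp3* were called higher (7.14%, against 1.4% of all tested genes) and none lower. The list's medians were 0.13 in the contrast, -0.08 against WT and 0.26 against homozygous cells. *Gbp2*, an interferon-induced GTPase, had 579 and 506 counts in WT, 752 and 755 in the heterozygous and 469 and 499 in the homozygous libraries, and was higher by 0.57 and 0.56 (SE 0.0712 and 0.0724, adjusted p = 3.46e-05 and 7.19e-06). Its neighbour *Gbp3* had 58 and 58, 87 and 88, and 26 and 36 counts, with log2 differences of 0.68 and 1.42 (SE 0.184 and 0.209, adjusted p = 0.0333 and 3.87e-05). Both are on chromosome 3, where *Gbp2b*, named after its values were seen, was higher by 0.54 and 0.66 (SE 0.113 and 0.117, adjusted p = 0.00622 and 0.000305). *Gbp7*, of the same family and also chosen afterwards, stood at 0.48 and 1.604 (SE 0.287 and 0.347, adjusted p = 0.441 and 0.00185) and was not called. These genes are close in sequence, so their reads could be split between them.

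*Cxcl10*, an interferon-induced chemokine, had 55 and 47, 73 and 85, and 43 and 32 counts, with log2 differences of 0.72 and 0.995 (SE 0.204 and 0.218, adjusted p = 0.0449 and 0.00202). *Cd74*, the invariant chain of MHC class II, was higher by 0.77 and 0.63 (SE 0.2004 and 0.202, adjusted p = 0.0266 and 0.0263). *Il24*, a cytokine of the IL-10 family, was higher by 0.69 and 0.61 (SE 0.138 and 0.139, adjusted p = 0.00386 and 0.00281). For each of the 3 both heterozygous libraries had the highest CPM. *Nfkb2*, *Tnfaip3* and *Ltb*, genes of the NF-κB pathway, were chosen after their values were seen. *Ltb* was higher by 0.63 and 0.55 (SE 0.129 and 0.1304, adjusted p = 0.00494 and 0.00409). *Nfkb2* was higher by 0.35 and 0.25. *Tnfaip3* was higher by 0.36 and 0.32. DESeq2 and limma-voom called neither *Tnfaip3* nor *Cxcl10*. The summed level of the interferon and MHC class I list was 725 and 745 CPM in WT, 707 and 706 in the heterozygous and 642 and 610 in the homozygous libraries. The fibroblast list had medians of -0.45 against WT and 0.52 against homozygous cells. Of its 37 genes *Ccn1*, a matricellular protein, was called higher and *Mmp2*, a gelatinase on chromosome 8, lower. These are 2.7% of the list in each direction, against 1.4% and 1.32% of all tested genes. The fibroblast list's part in the immune genes was not tested.

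The X chromosome carried a member with high counts and a difference near 1 on the log2 scale. *Mid1*, a microtubule-bound ubiquitin ligase whose gene reaches into the pseudoautosomal region (GRCm38 chrX:169685199-170005736), had 1629 and 1303 counts in WT, 2383 and 2687 in the heterozygous and 1034 and 1419 in the homozygous libraries. The heterozygous libraries were at 98.4 ± 3.67 CPM against 53.2 ± 3.13 and 49.8 ± 6.63. The log2 differences were 0.88 and 0.98 (SE 0.0671 and 0.0684, adjusted p = 8.01e-08 and 2.14e-09). The predicted genes *Gm15726* and *G530011O06Rik*, on the opposite strand within it, were also higher. For *Gm15726* the differences were 1.13 and 1.21 (SE 0.138 and 0.142, adjusted p = 2.62e-05 and 2.28e-06) and for *G530011O06Rik* they were 0.82 and 0.79 (SE 0.144 and 0.147, adjusted p = 0.00128 and 0.0004402). *Gm15247*, also antisense there, stood at 0.58 and 1.26 (SE 0.209 and 0.236, adjusted p = 0.136 and 0.000516) and was not called. Reads of the opposite strands may have been counted together. *Mid1-ps1*, its annotated copy on the Y chromosome, was higher by 0.59 and 0.69 (SE 0.0727 and 0.0741, adjusted p = 2.62e-05 and 7.05e-07), and reads of the copies cannot be told apart with certainty. *Hccs*, a gene of haem attachment to cytochrome c toward the centromere, was at 0.04 and 0.05 (SE 0.0589 and 0.0597, adjusted p = 0.815 and 0.594). These neighbours were chosen after their values were seen. *Gm21742*, a predicted gene of the Y chromosome chosen after its values were seen, was higher by 0.62 and 0.37 (SE 0.107 and 0.106, adjusted p = 0.00107 and 0.0148). *Gm47283*, also chosen afterwards, lies between *Mid1-ps1* and *Gm21742* and was no member. It stood at 0.03 and -0.38 (SE 0.118 and 0.116, adjusted p = 0.932 and 0.0210). A hand-made list of single-copy Y-linked genes, of which *Kdm5d*, *Uty*, *Ddx3y*, *Eif2s3y* and *Uba1y* were tested, summed to 34.1 and 33.0 CPM in WT, 5.99 and 6.84 in the heterozygous and 4.10 and 3.57 in the homozygous libraries, and none of the 5 was a member. At an unadjusted p below 0.05 against both genotypes 0 of them passed, and 0 by DESeq2 or limma-voom.

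A group of neighbours near 48 Mb of the X chromosome was lower, again chosen after the values were seen. *Utp14a*, of the small ribosomal subunit processome, had 7729 and 6989, 4970 and 5451, and 6867 and 7716 counts and was lower, at -0.41 and -0.56 (SE 0.04203 and 0.0421, adjusted p = 3.83e-06 and 5.13e-09). *Zdhhc9*, a palmitoyl transferase, was lower, at -0.36 and -0.31 (SE 0.0715 and 0.0728, adjusted p = 0.00355 and 0.00332), and *Bcorl1* lies beside them. The flanking *Ocrl* was at 0.04 and 0.00 and *Elf4* at 0.32 and 0.25, and neither was called. *Elf4* lay above the range. *Smarca1*, also near, was at -0.20 and -0.26 (SE 0.0681 and 0.0687, adjusted p = 0.102 and 0.00773). It lay below the range and was not called. *Utp14b*, the retrocopy of *Utp14a* on chromosome 1, had 1014 and 908, 1220 and 1303, and 780 and 891 counts and was higher by 0.48 and 0.52 (SE 0.05695 and 0.0579, adjusted p = 1.69e-05 and 1.14e-06). The copies thus differed in opposite directions. *Utp14b* lies within *Acsl3* and overlaps 4 of its exons, so part of its reads may belong to that gene, which was at 0.26 against WT and -0.10 against homozygous cells.

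Further members of the 15 highest came from varied functions. *Slc15a2*, a peptide transporter, had 130 and 84, 153 and 161, and 26 and 46 counts, with log2 differences of 0.65 and 2.05 (SE 0.161 and 0.201, adjusted p = 0.01999 and 1.95e-07). *Piezo2*, a mechanosensitive channel, had 154 and 166, 250 and 283, and 121 and 177 counts, with log2 differences of 0.82 and 0.77 (SE 0.128 and 0.1298, adjusted p = 0.000364 and 0.000182). The heterozygous libraries were highest for both, and *Slc15a2* was also lower in homozygous than in WT cells. *Ucn2*, a peptide of the corticotropin-releasing family, was higher by 0.84 and 1.44 (SE 0.221 and 0.247, adjusted p = 0.0293 and 0.000212). *Dgkk*, a diacylglycerol kinase, was higher by 0.60 and 0.85 (SE 0.1201 and 0.127, adjusted p = 0.00407 and 4.25e-05). *Catsperg1*, of the sperm calcium channel, was higher by 0.59 and 1.09 (SE 0.155 and 0.1699, adjusted p = 0.0278 and 7.12e-05). *Amigo2*, a neuronal adhesion protein, and *Slc25a48*, a mitochondrial carrier, were higher against WT by 0.67 and 0.78 and against homozygous by 0.89 and 0.64.

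Among the 15 lowest, *Sprr2k*, a small proline-rich gene of epithelial barriers, had few reads in every library, with 26 and 14, 1 and 6, and 13 and 11 counts. Its log2 differences were -2.38 and -1.82 (SE 0.5703 and 0.632, adjusted p = 0.0163 and 0.0405). *Myo1f*, an unconventional myosin, had 232 and 210, 127 and 118, and 231 and 266 counts, with log2 differences of -0.76 and -1.09 (SE 0.1196 and 0.117, adjusted p = 0.000437 and 7.02e-07). *Phf11d* had 339 and 250, 152 and 181, and 240 and 285 counts, with log2 differences of -0.73 and -0.73 (SE 0.113 and 0.115, adjusted p = 0.0003704 and 8.32e-05). In all 3 genes the heterozygous libraries were the lowest. *Pax8*, a paired-box factor of thyroid and kidney, was lower, at -0.81 and -1.25 (SE 0.2296 and 0.221, adjusted p = 0.0463 and 0.000286). *Mcf2*, a guanine nucleotide exchange factor, was lower, at -0.65 and -0.57 (SE 0.0974 and 0.0996, adjusted p = 0.000235 and 0.000244). *Tex14*, of germ cell bridges, was lower, at -0.56 and -0.92 (SE 0.101 and 0.0989, adjusted p = 0.00154 and 7.28e-07). *Serpinb6c* and *Zfp775* were lower against WT, at -0.68 and -0.61. *Pou4f2*, a POU-domain factor of retinal ganglion cells, and *Adad2*, a germline adenosine deaminase domain protein, lie on chromosome 8 and were lower, at -0.93 and -0.59 against WT. Of the called genes, 7 higher and 7 lower were predicted gene models, and the lowest of these were *Gm37194* (-0.95 and -1.19) and *A930004D18Rik* (-0.81 and -1.32).

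The other lists held few calls. Of 16 smooth muscle contractile genes, *Smtn* and *Tpm1*, both of actin filaments, were higher against WT by 0.38 and 0.23. They are 12.5% of the list, against 1.4% of all tested genes. Of 13 blood and endothelial genes, *Srgn* was higher and *Pecam1* lower (7.69% each, against 1.4% and 1.32%), each already counted in another list. *Srgn* entered the test only through the heterozygous libraries, so its call is a description. DESeq2 did not call *Pecam1* and gave *Srgn* no adjusted p. Among 14 neural genes 0 were called by edgeR, DESeq2 or limma-voom, and 2 were lower at an unadjusted p below 0.05 against both genotypes. Of the list of the *Zscan4*-marked cleavage-stage-like state, 3 genes were tested and 0 called by any of these tools, and 0 passed at an unadjusted p below 0.05. *Foxd3*, a repressor of lineage genes in mESCs, *Trh*, a hormone precursor of the stem cell signature, and *Mycn*, the N-MYC factor, were chosen after their values were seen. *Foxd3* was lower, at -0.49 and -0.37 (SE 0.0966 and 0.0996, adjusted p = 0.00365 and 0.00916). *Trh* was lower, at -0.46 and -0.61 (SE 0.0536 and 0.0536, adjusted p = 1.39e-05 and 4.56e-08). *Mycn* was lower, at -0.17 and -0.21 (SE 0.0452 and 0.0453, adjusted p = 0.03204 and 0.00148).

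In the lists with calls in 1 direction, the opposite direction held some genes at an unadjusted p below 0.05 against both genotypes: 1 lower among the primitive endoderm genes, 1 lower among the p53 targets, 1 higher in the ATF4 list, 1 higher among ribosomal proteins and 2 lower in the LIF and STAT3 list, where 2 were higher, and 0 higher in the naive, formative, DNA methylation, germline and oxidative phosphorylation lists. DESeq2 and limma-voom called 0 there too.

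Of the 101 called genes named above, limma-voom called 95, all but *Cxcl10*, *Tnfaip3*, *Otx2*, *Pax8*, *Serpinb6c* and *Gm37194*. DESeq2 called 54 and gave no adjusted p to *Nap1l5*, *Srgn* and *Sprr2k*. The other 44 passed with edgeR and not with DESeq2. Among the higher genes these were *Amigo2*, *Apaf1*, *Btg2*, *Catsperg1*, *Cd74*, *Cxcl10*, *Dgkk*, *Gbp2b*, *Gbp3*, *Gm21742*, *Il24*, *Ltb*, *Nfkb2*, *Pcgf5*, *Phlda1*, *Slc15a2*, *Slc25a48*, *Slc2a1*, *Slc2a3*, *Tnfaip3*, *Ucn2*, *Wnt3*, *Wnt4* and *Wnt7b*. Among the lower genes they were *A930004D18Rik*, *Adad2*, *Aldh18a1*, *Bcorl1*, *Foxd3*, *Gli1*, *Gm37194*, *Hormad1*, *Mmp2*, *Otx2*, *Pax8*, *Pdk1*, *Pecam1*, *Pou4f2*, *Psph*, *Rpl36*, *Serpinb6c*, *Uqcrq*, *Utf1* and *Zfp775*.

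**Figure D5:**
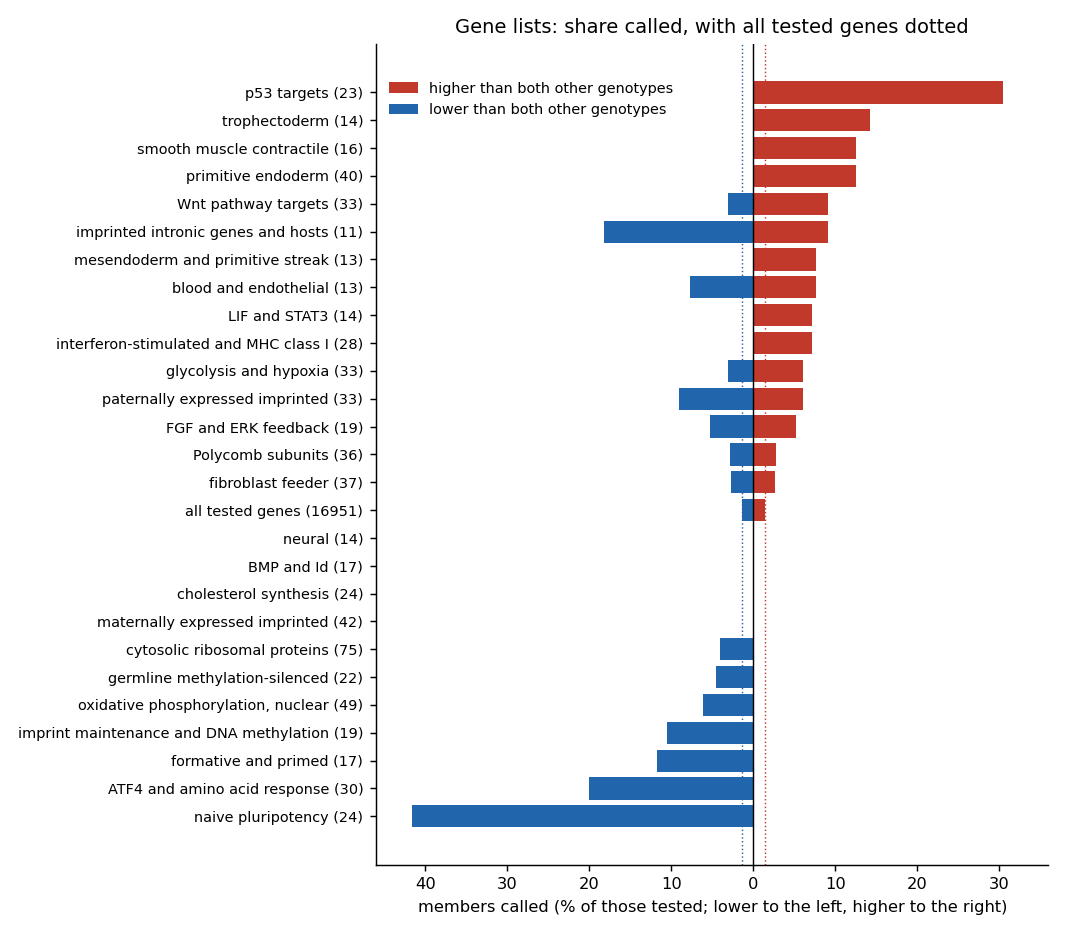
For each list with at least 10 tested genes (number in brackets), the bars give the percentage of tested members called higher (right) or lower (left) in heterozygous cells against both other genotypes; dotted lines mark all tested genes, 1.4% and 1.32%. The p53 targets reach furthest to the right at 30.4% and the naive pluripotency genes furthest to the left at 41.7%; lists overlap in members, and no test of a list was made.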

How the data were processed

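Total RNA of WT, heterozygous and homozygous mESCs was sequenced after polyA selection, with 2 libraries per genotype. The authors deposited 1 table of raw read counts per gene for these 6 libraries, and all of its count columns were matched to samples (0 columns belonged to other samples). The submitters' processing notes name Trimmomatic 0.39, STAR 2.6.1d, SAMtools 1.9, featureCounts 1.6.4 and DESeq2 1.22.2, and the builds mm10 and GRCm38. The annotation release and the strand setting of the counting are not given in the sources used here. The study's methods speak of triplicates, and 2 libraries per genotype were analysed here.

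Counts were analysed in R 4.3.3 with edgeR 4.0.16 (TMM scaling, quasi-likelihood fit of 3 genotype means, limma 3.58.1), after keeping genes that reached 10 counts in 2 or more libraries. The contrast was heterozygous minus the average of WT and homozygous means, and each pairwise difference was tested as well. The range rule used log2 CPM with a prior count of 2. The common biological coefficient of variation was 3.52%. Replicates were distinct libraries, since their chi-square over its degrees of freedom was 2.31, 2.40 and 3.52 in WT, heterozygous and homozygous libraries. A floor of 3 counts equalled 0.102 to 0.131 CPM, and floors cover counting error only. Positions are from GENCODE vM21 (GRCm38), which held 16940 of the tested genes, and promoter sequences from RefSeq. Scripts were tested on simulated data.

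Members and gene lists were chosen with earlier results of these data known. The named genes were the 15 highest and 15 lowest by the smaller pairwise difference among called members that are not predicted gene models, with the 2 highest and 2 lowest predicted models, every called list member, the targeted genes, the genes at the edge of the rule and the hosts of imprinted members. Some results of the rule are not reported here. Most other genes are said to be chosen after their values were seen. *Nanog* and *Pou5f1* were chosen in that way too, without that remark where they appear. *Acta1*, *Gata4*, *Gata6*, *Cdkn1a*, *Axin2* and the named Y-linked genes are also outside these rules. Alternatives were scaling by DESeq2 size factors or total counts, other count filters, robust estimation, a block by replicate number, leaving out chromosome 8, DESeq2 1.42.0, limma-voom, a prior count of 0.5, a gap of at least 0.25 in the range rule, and leaving out each library. Figures were drawn with matplotlib 3.10.9.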

Additional observations from a re-analysis of the deposited data

Results flagged for a closer look

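At 23 genes named by the rule the heterozygous and the homozygous libraries differed from WT in opposite directions, each at an adjusted p below 0.05 (edgeR's quasi-likelihood test), and differed from each other. Over all tested genes there were 158 such genes, 103 of them on chromosome 8. The values below are log2 differences, heterozygous minus homozygous.

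On chromosome 8 the heterozygous cells were below and the homozygous cells above WT. The differences there were -1.87 for *Zmat4*, -1.57 for *Pou4f2*, -0.89 for *Aars*, -0.89 for *Gab1*, -0.80 for *Slc7a5*, -0.71 for *Rpl13*, -0.61 for *Cox4i1*, -0.60 for *Ndufb7* and -0.53 for *Zfp42*.

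On other chromosomes the same order was seen at -1.09 for *Myo1f*, -0.92 for *Tex14*, -0.71 for *Fbxo15*, -0.67 for *Nr5a2* and -0.48 for *Pecam1*, and, among genes of serine and proline synthesis, at -0.59 for *Psat1*, -0.53 for *Shmt2*, -0.51 for *Aldh18a1* and -0.49 for *Psph*. The reverse order, with heterozygous cells above and homozygous cells below WT, was seen at 0.39 for *Pim1*, 0.46 for *Trp53inp1*, 0.47 for *Ccn1*, 1.42 for *Gbp3* and 2.05 for *Slc15a2*. Both comparisons share the WT libraries. Of the genes chosen after their values were seen, *Sall1* (-0.74) and *Utp14a* (-0.56) had the same order as the genes below WT.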

How the results depend on the processing

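The count past a log2 difference of 1 in the heterozygous contrast, 37 higher and 31 lower, was 66 higher without a filter on low counts, 8 and 15 with at least 10 counts in all 6 libraries, and 4 and 7 by DESeq2, and ran from 15 to 87 and from 11 to 38 when 1 library was left out. At an adjusted p below 0.05 alone, the 1132 higher genes became 505 by DESeq2 and the 1219 lower genes 803 without chromosome 8, which leaves fewer genes to test, and ran from 547 to 1601 and from 696 to 1624 with 1 library left out. Of the genes called against both genotypes, the 237 higher became 104 by DESeq2 and the 224 lower 132 by DESeq2 and 121 without chromosome 8. With 1 library left out these ran from 91 to 303 and from 63 to 352. They were 114 and 73 without WT replicate 1, 105 and 63 without WT replicate 2, 123 and 179 without heterozygous replicate 1, 91 and 65 without heterozygous replicate 2, 290 and 308 without homozygous replicate 1, and 303 and 352 without homozygous replicate 2. In these fits the lone library of a genotype is assumed to vary like the others. Outside the range were 2323 and 2086 genes, of which 256 and 158 had a gap of at least 0.25 on the log2 scale, and 2695 to 4002 and 2369 to 3638 with 1 library left out, where fewer libraries make the rule easier to meet. The range rule uses no fit, so the block, robust estimation, DESeq2 and limma-voom give it no value.

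Same-numbered libraries did not deviate together (correlations of 0.0261, -0.0944 and 0.00865 across genes), so no pairing by replicate number was seen. A pairing that touches few genes would not show in these correlations. With the replicate number as a block 34 higher and 31 lower genes passed the threshold, 1080 and 1177 had an adjusted p below 0.05 in the contrast, and 215 and 211 were called against both, of which 411 were among the 461 (89.2%). The median contrast over all genes was 0.0123 with TMM factors, 0.0505 with total counts and 0.00159 with DESeq2 size factors. No difference of the 97 named genes tested again was reversed. The passing values tallied next are not calls against both genotypes. Of those calls, DESeq2 kept 235 of the 461 (51%) and 54 of the 101 named. Leaving out 1 library gave 42 values that no longer passed and 1 that newly passed, against 535 on the same side, and the other alternatives gave 15 that no longer passed, against 929. With 1 library left out, calls ran from 0 to 7 in the ribosomal list and from 0 to 3 in the oxidative phosphorylation list. At 2 libraries per genotype, small differences of genes with few counts were not detectable.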
